A study of Mus musculus with 4 samples.

Results

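The genes of cholesterol synthesis, sensing, uptake and transport were examined in the testis of Tas1r3 KO mice and wild-type (WT) mice. The set holds 30 named genes of the 17934 genes in the deposited tables, chosen by symbol, and all 30 were found in the tables of all 4 libraries. There were 2 libraries of whole testis from Tas1r3 KO mice, which lack a subunit of the sweet and umami taste receptors, and 2 from WT mice. All were male, of the C57BL/6 strain, and had eaten a western diet for 18 weeks, so no group shows these genes on another diet. The labels give neither the age of the mice nor how the Tas1r3 allele was made, and nothing in them says whether replicates 1 and 2 were different mice. The error behind the p-values below therefore comes only from how far these replicates lie apart, pooled in part across genes, and that distance may be technical.

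Cells build cholesterol from acetyl units through mevalonate, farnesyl diphosphate, squalene and lanosterol. The membrane protein SCAP carries the transcription factor precursor SREBP2, the product of Srebf2, out of the endoplasmic reticulum when sterols are scarce, and the INSIG proteins hold it back when sterols are plentiful. In the testis, Leydig cells turn cholesterol into testosterone, and germ cells accumulate sterol intermediates that lie between lanosterol and cholesterol.

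Depth, estimated as the number of assigned reads, came to 748634 and 597941 in KO replicates 1 and 2, against 1719380 and 1807664 in WT replicates 1 and 2, so the KO libraries were shallower. Values are CPM, assigned reads scaled to a library total of 1000000. Tas1r3 itself, the targeted gene, had 1.34 and 0 CPM in KO, against 13.8 and 20.5 CPM in WT, and was not called (limma, BH-adjusted p = 0.627). The libraries carried testis markers: the 8 spermatid genes summed to 21140 and 31610 CPM in KO, against 25150 and 25070 CPM in WT. The 8 Leydig cell genes summed to 1650 and 1697 CPM in KO, against 1810 and 1899 CPM in WT. Insl3 alone had 1230 and 1280 CPM in KO, against 1520 and 1460 CPM in WT. Of the 8 log2 differences, 4 were above 0 and 4 below, with a median of 0.01. The 6 spermatogonial genes summed to 146.7 and 147.5 CPM in KO, against 116.3 and 109.2 CPM in WT, with 5 log2 differences above 0, 1 below and 0 called (limma). The 6 spermatocyte genes summed to 808.0 and 607.6 CPM in KO, against 605.1 and 604.5 CPM in WT, with all 6 log2 differences above 0, 0 called and 2 at an unadjusted p under 0.05 (limma). The 5 red blood cell genes summed to 35.8 and 53.89 CPM in KO, against 47.84 and 185.6 CPM in WT. All 5 log2 differences were below 0, with a median of -1.05, 0 called and 1 at an unadjusted p under 0.05 (limma). The 3 measured epididymal genes, of 5 listed, summed to 5.213 and 3.46 CPM in KO, against 46.13 and 3.746 CPM in WT. Crisp1 stood at 40.7 CPM in WT replicate 1 and was listed at 0 in the other libraries. Adam7 had 1.34 and 0 CPM in KO, against 5.42 and 0 CPM in WT. Rnase10 went the other way in WT replicate 1, with 3.88 and 3.46 CPM in KO, against 0.00446 and 3.75 CPM in WT. In whole testis, fewer cells of a type and less RNA per cell cannot be told apart, and the part of these shifts in the values below was not tested.

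Cholesterol gene messages summed to nearly the same level in both genotypes. The 30 genes together took 1217 and 1195 CPM in KO replicates 1 and 2, against 1314 and 1237 CPM in WT replicates 1 and 2. Both KO sums lay below both WT sums, and the WT libraries were farther from each other than KO replicate 1 was from WT replicate 2. Without Fdft1, the highest of the 30, the sums were 744.9 and 732.1 CPM in KO, against 790.1 and 766.9 CPM in WT. None of the 30 was called between genotypes, with 0 higher and 0 lower (limma, BH-adjusted p from 0.95 to 0.996), where 0.00566% of the 17654 genes tested were called, a single gene outside the set. At an unadjusted p under 0.05 stood 1 of the 30, Pmvk, beside 4.33% of all genes. On the log2(CPM + 1) scale, 12 of the 30 differences (KO minus WT) were above 0 and 18 below. Over all 17654 genes tested, 7922 were above 0 and 9732 below. The median of the 30 was -0.08, beside -0.04 over all genes tested, and the median of their absolute size was 0.35, beside 0.25.

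The KO and WT libraries did not overlap for 13 of the 30 genes (43.3%), beside 34.3% of all genes tested. Of these, 5 were higher in KO, where 15.1% of all genes were, and 8 were lower, where 19.2% of all genes were. Several of the 13 were parted by a small gap. Sqle, encoding squalene epoxidase, had 93.5 and 98.9 CPM in KO, against 93.4 and 91.3 CPM in WT. Hsd17b7, encoding a sterol 3-keto reductase, had 6.68 and 5.02 CPM in KO, against 2.91 and 4.99 CPM in WT.

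**Figure D1:**
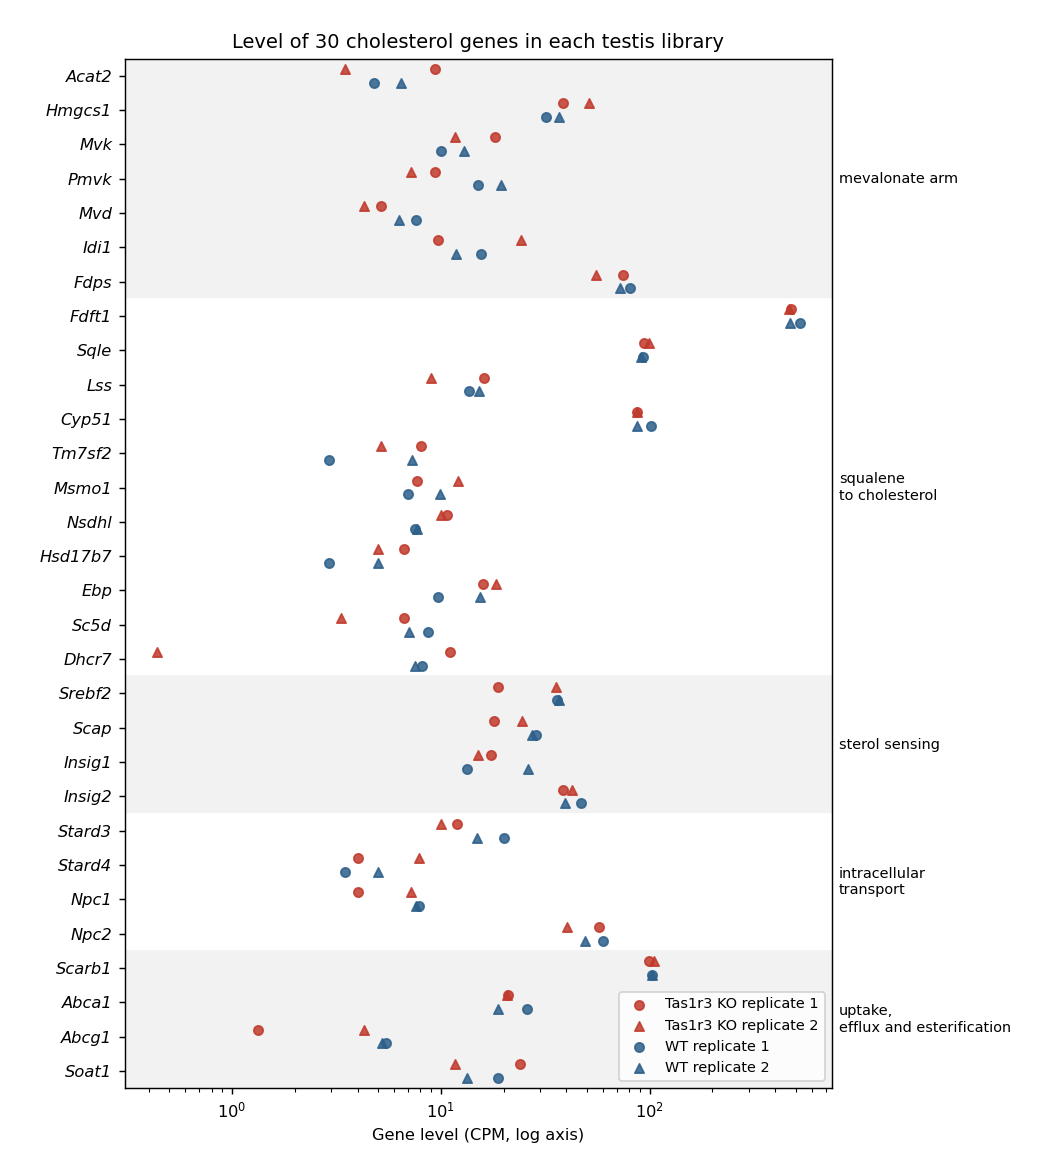
Level of each of the 30 genes in CPM (log axis) in the 2 KO libraries (red) and the 2 WT libraries (blue), with circles for replicate 1, triangles for replicate 2 and shading by role. Fdft1 lies far to the right at 463 to 524 CPM, and for many genes the red and blue points interleave; the lowest point is Dhcr7 in KO replicate 2 at 0.438 CPM.

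To compare levels between genes, each transcript's CPM was divided by its length in kilobases. On that scale Fdft1, which encodes squalene synthase at the branch point to sterols, led the set with a mean of 158 CPM per kb in KO and 167 CPM per kb in WT, at percentile 96.5 of all genes tested. Fdps, encoding farnesyl diphosphate synthase just before it, came second with 52.2 CPM per kb in KO and 60.9 in WT. The HDL receptor gene Scarb1 followed with 42.6 CPM per kb in KO and 42.7 in WT, then Sqle with 35.0 in KO and 33.6 in WT and the lanosterol demethylase gene Cyp51 with a mean of 20.9 over all 4 libraries. These 5 genes kept this order in each of the 4 libraries, with Scarb1 at 41.0 CPM per kb or more and Sqle at 36.0 or less. Fdps and Scarb1 nearly met in KO replicate 2, at 44.3 and 44.2 CPM per kb. At the other end, the sterol efflux transporter gene Abcg1 had 0.484 CPM per kb in KO and 0.919 in WT, and the sterol carrier gene Stard4 had 1.12 in KO and 0.799 in WT. The median gene tested had 5.23 CPM per kb over the 4 libraries, and 16 of the 30 genes lay above it.

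Among the 18 synthesis genes, Fdft1 alone took 45.5% and 47.9% of the summed CPM per kb in KO replicates 1 and 2, against 48.4% and 45.6% in WT replicates 1 and 2. Fdft1, Fdps, Sqle and Cyp51 together took 78.1% and 78.7% in KO, against 82.0% and 77.5% in WT. The other 14 enzymes shared the remainder, and their own shares varied: Dhcr7 took 1.29% and 0.0651% in KO, against 0.937% and 0.984% in WT. Fdft1 overlaps the cathepsin gene Ctsb, on the opposite strand, over 774 bases. Ctsb had 68.8 and 63.1 CPM in KO, against 68.0 and 58.5 CPM in WT, and the sources do not state whether reads were counted by strand.

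**Figure D2:**
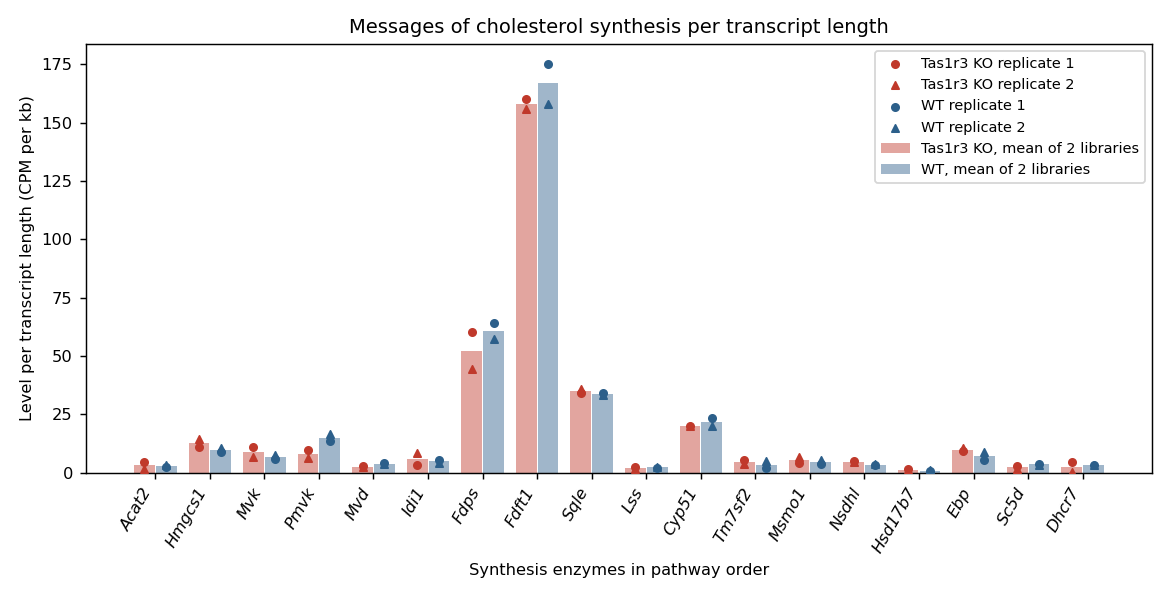
Level per transcript length (CPM per kb) of the 18 synthesis genes in pathway order; bars are means of 2 libraries, KO (red) left of WT (blue), with each library as a point. Fdft1 stands out at 158 CPM per kb in KO and 167 in WT, and Fdps, Sqle and Cyp51 are the next highest bars.

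Promoter sequence was looked at for the motif by which SREBP2 is known to act. RefSeq promoter windows on GRCm38.p6, from 250 bases before to 50 bases after a start, were at hand for 23 of the 30 genes, in 29 windows. Fdft1, Fdps, Scarb1 and Sqle, the highest of the set by CPM per kb, had no window and were not searched. Neither were Npc1, Stard4 and Abcg1. The sterol regulatory element core, searched as TCACNCCAC on both strands, lay in 2 of the 29 windows (6.90%) and in 1.24% of all 32851 windows. Those 2 windows belong to Hmgcs1, encoding HMG-CoA synthase, and to Stard3, encoding a late endosomal sterol transfer protein. Both are shown, and their cores differ only at the open letter N. Hmgcs1 had the higher values in KO and Stard3 the lower, and neither was called. The stretches are 80 bases long on the plus strand, wholly upstream of the start, with the core in capitals.
Hmgcs1, chr13:119690179-119690258: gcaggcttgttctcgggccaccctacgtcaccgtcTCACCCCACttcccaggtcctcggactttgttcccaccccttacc
Stard3, chr11:98358122-98358201: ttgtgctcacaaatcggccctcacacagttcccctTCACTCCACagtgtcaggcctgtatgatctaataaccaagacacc
In Hmgcs1 the core began 137 bases before the start, and in Stard3 it began 211 bases before it. The NF-Y box CCAAT, bound by a factor that acts beside SREBP2, lay in 20 of the 29 windows (69.0%) and in 37.4% of all windows. The Sp1 box GGGCGG lay in 25 of the 29 (86.2%) and in 35.7% of all. The E-box CACGTG lay in 7 windows of 6 genes (24.1%) and in 7.15% of all, and the cAMP response half-site TGACGT in 2 (6.90%) and 7.51%. Median GC content was 62.3% in the 29 windows and 52.7% in all windows, and its part in the motif shares was not tested. Each motif was searched by itself on both strands, and these matches describe letters, not binding.

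In the mevalonate arm, which runs from acetyl-CoA to farnesyl diphosphate, 4 of 7 differences were above 0 and 3 below, and 0 were called (limma, BH-adjusted p from 0.95 to 0.995). Pmvk, encoding phosphomevalonate kinase at chromosome 3, 89361848 to 89376317 on the plus strand of mm39, had the smallest unadjusted p of the 30. It had 9.35 and 7.22 CPM in KO replicates 1 and 2, against 15.1 and 19.4 CPM in WT replicates 1 and 2. Both KO libraries lay below both WT libraries, and the WT mean was 2.08-fold the KO mean. The log2 difference was -0.97 (SE 0.36, 95% interval -1.80 to -0.15; limma, unadjusted p = 0.0252, BH-adjusted p = 0.95). These values rest on 11 estimated reads in KO and 61 in WT. The ratio of reads scaled by depth was 0.472, with a 95% exact conditional interval of 0.224 to 0.906 that covers counting error only.

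Hmgcs1, the enzyme that forms HMG-CoA, lay on the other side. It had 38.7 and 51.5 CPM in KO, against 32.0 and 36.7 CPM in WT. Both KO libraries were above both WT libraries, with a log2 difference of 0.37 (SE 0.24; limma, BH-adjusted p = 0.95). Mvd, encoding the decarboxylase that acts after phosphomevalonate kinase, had 5.16 and 4.27 CPM in KO, against 7.63 and 6.33 CPM in WT. Its KO libraries were below its WT libraries, on 6 estimated reads in KO and 25 in WT, but the log2 difference of -0.48 became 0.06 when all libraries were thinned to the shallowest one. Fdps had 74.8 and 55.2 CPM in KO, against 80.8 and 72.5 CPM in WT, and KO replicate 1 lay between the WT libraries. Mevalonate kinase gene Mvk averaged 15.0 ± 4.62 CPM in KO and 11.4 ± 2.03 CPM in WT, and the isomerase gene Idi1 16.9 ± 10.2 CPM in KO and 13.8 ± 2.61 CPM in WT (SD, n = 2 each). For both the genotypes overlapped. The acetoacetyl-CoA thiolase gene Acat2 averaged 6.42 ± 4.15 CPM in KO and 5.61 ± 1.19 CPM in WT. Its near copy Acat3 had 14.7 CPM in KO replicate 1 and under 0.001 CPM in KO replicate 2, against 22.8 and 15.5 CPM in WT, and reads may be split between these near copies. Acat2 and Acat3 together had 24.0 and 3.49 CPM in KO, against 27.6 and 22.0 CPM in WT, so KO replicate 2 was lowest for the sum as well.

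From squalene to cholesterol, 6 of 11 differences were above 0 and 5 below, and 0 were called (limma, BH-adjusted p from 0.95 to 0.979). Fdft1 had 473 and 463 CPM in KO replicates 1 and 2, against 524 and 470 CPM in WT replicates 1 and 2. KO replicate 1 lay between the WT libraries. The log2 difference was -0.08 with a 95% interval of -0.37 to 0.20 (limma, BH-adjusted p = 0.96), the narrowest interval of the 30. Sqle, the next enzyme, had a log2 difference of 0.06 with a 95% interval of -0.31 to 0.43 (limma). Cyp51, which removes a methyl group of lanosterol on the way to the meiosis-activating sterols of testis, averaged 87.3 ± 0.342 CPM in KO and 94.3 ± 9.77 CPM in WT (SD, n = 2 each). Its interval on the log2 scale was -0.49 to 0.28 (limma). A change larger than these bounds was outside the 95% intervals of these enzymes, while several low members of the arm, such as Nsdhl and Ebp, had intervals that reach past 1 log2 unit.

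The genotypes did not overlap for 5 of the 11 genes, with 4 higher in KO (Sqle, Nsdhl, Hsd17b7 and Ebp), where 15.1% of all genes were, and 1 lower (Sc5d), where 19.2% were. Nsdhl, a sterol dehydrogenase gene on the X chromosome, had 10.7 and 10.0 CPM in KO, against 7.56 and 7.74 CPM in WT. Ebp, encoding a sterol isomerase that acts later in the pathway and also X-linked, had 15.9 and 18.3 CPM in KO, against 9.71 and 15.4 CPM in WT. The log2 difference was 0.39 for Nsdhl (SE 0.39), 0.45 for Ebp (SE 0.35) and 0.49 for Hsd17b7 (SE 0.53), each with a 95% interval that includes 0 (limma, BH-adjusted p = 0.95 each). After thinning to the shallowest library, Nsdhl stood at -0.05. Msmo1, a methylsterol oxidase gene, averaged 9.90 ± 3.14 CPM in KO and 8.47 ± 2.11 CPM in WT, and Tm7sf2, a sterol reductase gene, 6.58 ± 2.03 CPM in KO and 5.11 ± 3.11 CPM in WT (SD, n = 2 each). Both overlapped between genotypes.

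Sc5d, encoding a sterol desaturase, had 6.68 and 3.34 CPM in KO, against 8.71 and 7.08 CPM in WT, with both KO libraries below both WT libraries on 7 estimated reads in KO and 28 in WT. Dhcr7, which makes cholesterol from 7-dehydrocholesterol, differed most between libraries of a genotype and is named for that after its values were seen. It had 11.1 and 0.438 CPM in KO replicates 1 and 2, against 8.16 and 7.50 CPM in WT replicates 1 and 2. KO replicate 2 held under 1 estimated read and KO replicate 1 was the highest of all 4 libraries. The log2 difference was -1.08 (SE 0.87; limma, BH-adjusted p = 0.95). It was -2.62 without KO replicate 1, where KO replicate 2 alone stands for KO. The lanosterol synthase gene Lss averaged 12.6 ± 5.07 CPM in KO and 14.4 ± 1.20 CPM in WT (SD, n = 2 each). Like Fdft1, Lss overlaps a gene on the opposite strand, 4930483K19Rik, over 11270 bases. That gene had 8.01 and 7.74 CPM in KO, against 6.65 and 9.56 CPM in WT.

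All 4 sterol-sensing genes had a lower mean log2 level in KO, where 9732 of the 17654 genes tested did. Of the 4, 0 were called (limma, BH-adjusted p from 0.95 to 0.979). Together they took 92.84 and 117.8 CPM in KO, against 125.2 and 129.6 CPM in WT, with no overlap. Srebf2 had 18.9 and 35.7 CPM in KO replicates 1 and 2, against 36.2 and 36.7 CPM in WT replicates 1 and 2. KO replicate 1 was low and KO replicate 2 was close to WT. The log2 difference was -0.47 (SE 0.31; limma, BH-adjusted p = 0.95). It was -0.91 without KO replicate 2 but -0.03 without KO replicate 1, each resting on a lone KO library. Scap had 17.9 and 24.4 CPM in KO, against 28.6 and 27.4 CPM in WT, with both KO libraries below both WT libraries and a log2 difference of -0.40 (SE 0.28; limma, BH-adjusted p = 0.95). Insig2, the highest of the group, had 38.7 and 42.7 CPM in KO, against 47.1 and 39.2 CPM in WT. The genotypes overlapped, and its log2 difference of -0.08 was 0.05 without WT replicate 1. Insig1, itself a known SREBP2 target, averaged 16.2 ± 1.64 CPM in KO and 19.8 ± 9.22 CPM in WT, and its WT libraries lay on either side of its KO libraries.

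Genes that move cholesterol inside the cell gave 3 differences below 0 and 1 above, with 0 called (limma, BH-adjusted p from 0.95 to 0.96). Stard3 had 12.0 and 10.0 CPM in KO, against 20.1 and 15.0 CPM in WT. Both KO libraries were below both WT libraries, and the WT mean was 1.59-fold the KO mean, with a log2 difference of -0.62 (SE 0.34; limma, BH-adjusted p = 0.95) on 15 estimated reads in KO and 62 in WT. Npc1 and Npc2 encode the membrane and soluble proteins that pass cholesterol out of lysosomes. Npc1 had 4.01 and 7.20 CPM in KO, against 7.83 and 7.58 CPM in WT, with no overlap between genotypes but a gap of under 1 estimated read. In the genome Npc1 shares 277 bases with Rmc1 on the opposite strand. Rmc1 had 13.4 and 10.3 CPM in KO, against 7.01 and 9.96 CPM in WT, and counting by strand is not stated. Npc2, the highest of the group, had 57.4 and 40.1 CPM in KO, against 59.9 and 49.2 CPM in WT, and KO replicate 1 lay between the WT libraries. Its log2 difference was -0.17, and 0.08 without KO replicate 2. Stard4 averaged 5.94 ± 2.74 CPM in KO and 4.24 ± 1.06 CPM in WT (SD, n = 2 each).

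Uptake, efflux and esterification genes had 0 called (limma, BH-adjusted p from 0.95 to 0.996), with 3 differences below 0 and 1 above. Scarb1, through which Leydig and Sertoli cells take up HDL cholesterol, had 98.8 and 105 CPM in KO replicates 1 and 2, against 103 CPM in each of WT replicates 1 and 2. The KO libraries lay on either side of WT, and the log2 difference was -0.01 with a 95% interval of -0.37 to 0.35 (limma). It was 0.03 without KO replicate 1, so no direction is given. The efflux transporter gene Abca1 averaged 20.9 ± 0.191 CPM in KO and 22.3 ± 4.90 CPM in WT, and Soat1, encoding the enzyme that esterifies cholesterol for storage, 17.9 ± 8.72 CPM in KO and 16.1 ± 3.89 CPM in WT (SD, n = 2 each). Abcg1 had 1.34 and 4.29 CPM in KO, against 5.45 and 5.25 CPM in WT. Its KO libraries were below its WT libraries on 4 estimated reads in KO and 19 in WT, and the counting interval of the ratio, 0.136 to 1.66 (95%, exact conditional), includes no difference.

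**Figure D3:**
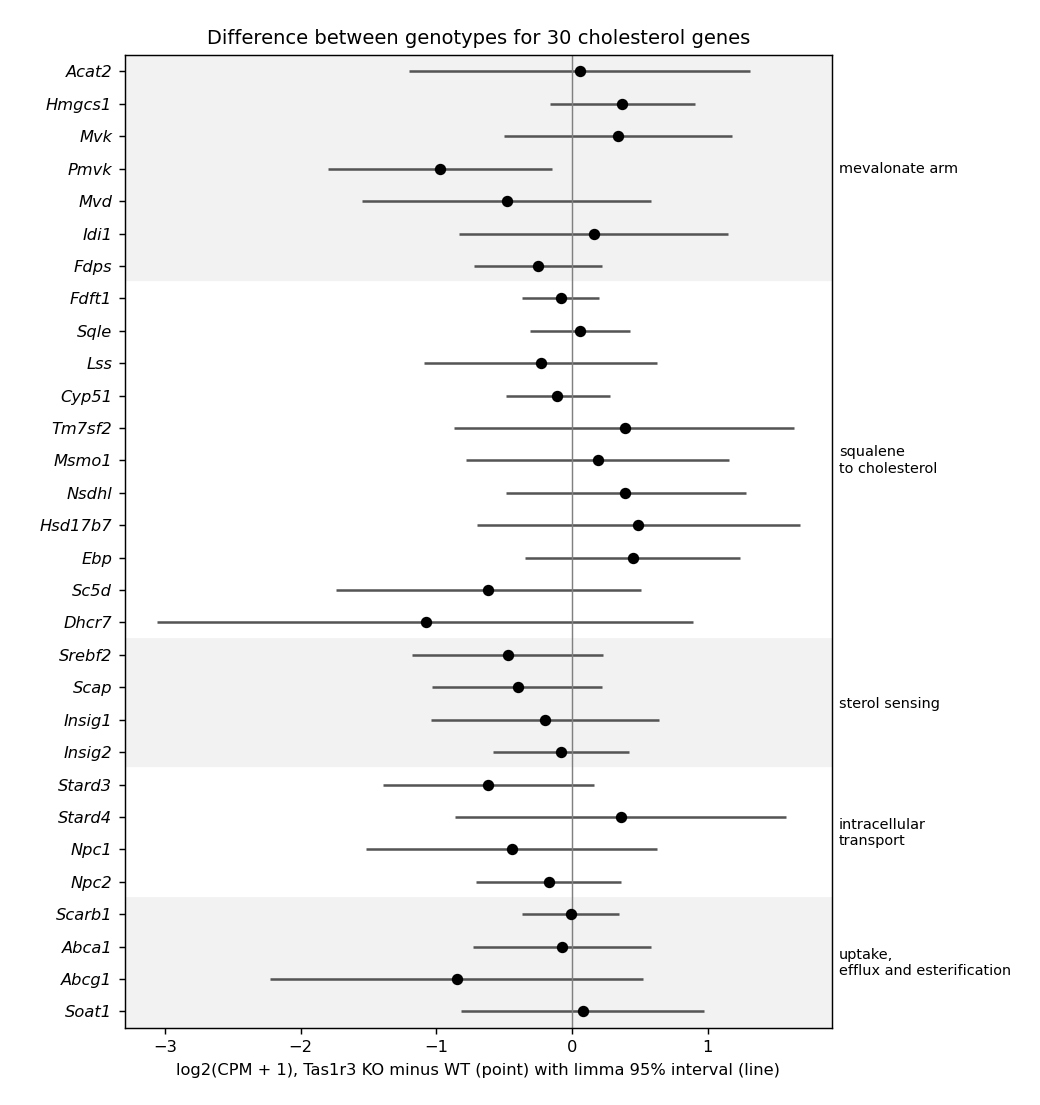
Difference of mean log2(CPM + 1), KO minus WT, for each of the 30 genes (points) with limma's 95% interval (lines), shaded by role. Only the line of Pmvk, from -1.80 to -0.15, stays clear of 0, before adjustment over 17654 genes.

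Estimated reads and errors are set side by side here. In KO, 14 of the 30 genes had under 20 estimated reads in both libraries together, and 4 had 100 or more. The counting interval of the KO to WT ratio included 1 for 29 of the 30. The SE of the log2 difference ran from 0.13 for Fdft1, on 631 estimated reads in KO and 1751 in WT, to 0.87 for Dhcr7, on 9 in KO and 28 in WT. Genes of like depth differed in SE: Acat2 and Tm7sf2, also with 9 estimated reads in KO, had 0.55, and Dhcr7 had the widest distance between KO libraries, 3.07 on the log2 scale. The median distance between libraries of a genotype over the 30 genes was 0.43 on the log2 scale in KO and 0.26 in WT, beside 0.44 in KO and 0.26 in WT over all genes tested.

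**Figure D4:**
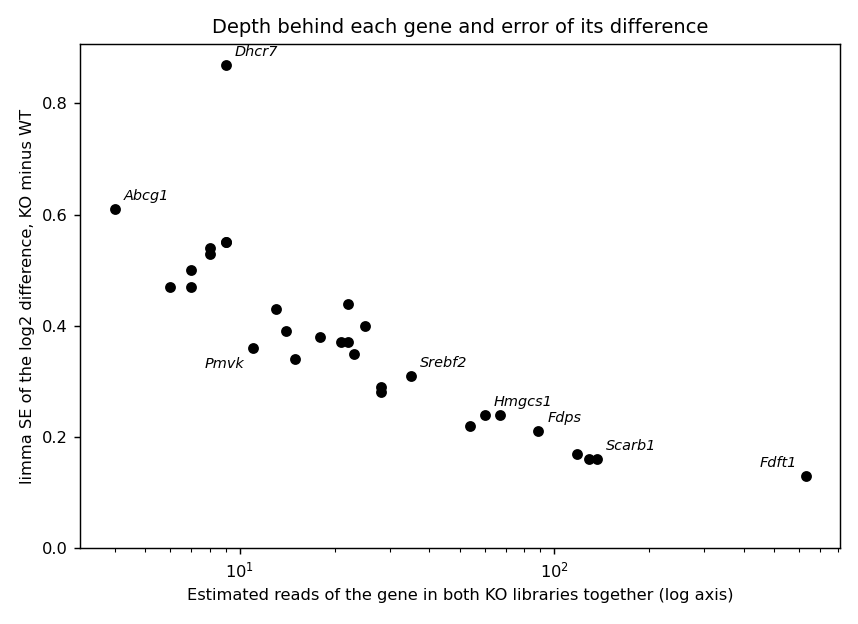
Estimated reads of each of the 30 genes in both KO libraries together (log axis) against limma's SE of its log2 difference, KO minus WT; each point is a gene. The SE is lowest for Fdft1, 0.13 at 631 reads, and highest for Dhcr7, 0.87 at 9 reads.

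Transcript values within a gene were less stable than the gene sums. The 30 genes had 45 transcripts, and 11 genes had more than 1. Fdft1 was carried by its 2956-base transcript, which starts at chromosome 14, position 63415337 (mm39, minus strand): it took 100% and 98.2% of the gene in KO replicates 1 and 2, against 94.5% and 96.4% in WT replicates 1 and 2. The 3697-base transcript, which starts upstream at position 63417028, had 0 and 5 estimated reads in KO, against 50 and 30.6 in WT. The 1461-base Fdps transcript likewise had 0 estimated reads in each KO library, against 9.4 and 12.1 in WT. Other genes changed their leading transcript within a genotype: the 978-base Pmvk transcript took 100% in KO replicate 1 and 1.05% in KO replicate 2, against 35.0% and 2.69% in WT. Of the 26 transcripts of these 11 genes, 6 and 9 stood under 0.5 estimated reads in KO, against 2 and 1 in WT. These were 23.1% and 34.6% of the 26 in KO, against 7.69% and 3.85% in WT. Over all 17611 transcripts of genes with several, 3523 and 4090 stood under that level in KO, against 1821 and 1802 in WT, and the part of depth in these transcript values was not tested.

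Beyond the 30 genes, a list of 58 further cholesterol genes had 53 measured. None was called (limma, BH-adjusted p from 0.95 to 0.998), and 1 had an unadjusted p under 0.05. Of the 53 differences, 20 were above 0 and 33 below, with a median of -0.06, beside 7922 above and 9732 below over all genes tested. The libraries did not overlap for 16 of the 53 (30.2%), beside 34.3% of all genes. The 4 with the highest CPM, not corrected for length, were Tmem97, encoding an NPC1-binding sterol regulator, Rnf139, encoding a sterol-responsive ubiquitin ligase, Stard6, encoding a sterol carrier of male germ cells, and Lipe, encoding the hormone-sensitive lipase that frees cholesterol from its esters. Tmem97 had 574 and 559 CPM in KO, against 604 and 534 CPM in WT, and Rnf139 had 446 and 418 CPM in KO, against 459 and 422 CPM in WT. Stard6 had 310 and 318 CPM in KO, against 301 and 264 CPM in WT, and was higher in both KO libraries. Lipe had 232 and 213 CPM in KO, against 237 and 268 CPM in WT, and was lower in both KO libraries.

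The 4 genes of that list with the smallest unadjusted p were all lower in both KO libraries. Cyp39a1, an oxysterol hydroxylase gene, had 0.337 and 1.69 CPM in KO, against 5.10 and 8.16 CPM in WT, on 1 estimated read in KO and 24 in WT (limma, unadjusted p = 0.0142, BH-adjusted p = 0.95). Gramd1a, encoding a carrier of cholesterol from the plasma membrane to the endoplasmic reticulum, had 22.7 and 18.4 CPM in KO, against 26.9 and 39.2 CPM in WT. Mylip, encoding a ligase that marks lipoprotein receptors for breakdown, had 1.34 and 2.13 CPM in KO, against 6.78 and 4.11 CPM in WT, and the caveolin gene Cav1 had 5.34 and 0 CPM in KO, against 9.31 and 6.44 CPM in WT.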

How the data were processed

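The 30 genes, the lists and the tests were chosen with earlier results of these data known. The authors deposited 1 table per library with CPM values for 29342 RefSeq transcripts; each column sums to 1000000, and the unit was inferred from the values. The submitters' processing notes name STAR, Partek and mm39, without roles or versions. Estimated reads are CPM divided by the worth of 1 read, read from the commonest low values. Only 20.6% to 45.5% of genes were whole reads within 0.01, so no count model was fitted.

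Transcripts were summed per symbol (10 symbols on several chromosomes kept apart), and those averaging 1 CPM or more over the 4 libraries (17654, all 30 included) were tested two-sided on log2(CPM + 1). The tool was limma 3.58.1 (R 4.3.3), moderated with a trend on mean level. BH denotes Benjamini-Hochberg adjustment over all genes tested, called under 0.05. This scale understates changes of low genes. Genes given library by library lead their role by CPM, do not overlap between genotypes or have 1 of the 8 smallest p. The procedure was tested on simulated data with changes planted only in highly expressed genes and larger than any of the 30. That does not show how it finds small changes or changes of low genes. Intervals of read ratios are 95%, exact and conditional, and cover counting error only, since reads carry no molecular identifiers. Overlapping genes were looked up in the deposited coordinates. Idi1 overlaps a pseudogene on the same strand. Figures used matplotlib 3.10.9.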

Additional observations from a re-analysis of the deposited data

How the results depend on the processing

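The 30 genes gave 0 calls in 11 of 13 alternatives, and leaving out 1 library each gave 0 to 1 (limma, BH): Dhcr7 without KO replicate 1 and Srebf2 without KO replicate 2. Those fits take the lone KO library to vary like the WT pair. Over all genes the single call became 0 with a pseudocount of 0.1 CPM, with no mean-variance trend and after thinning to the shallowest library, and 24 with the replicate number as a block. Leaving out 1 library gave 0 to 954 calls: KO replicate 1 out gave 954, KO replicate 2 out gave 413, and either WT library out gave 0. Whether the replicate numbers pair the libraries is not known. The correlation of deviations (-0.006 across genes) cannot settle it, since it would show only a strong shared shift. With the block 0 of the 30 were called. The median log2 difference of the 30, -0.08, was -0.12 after thinning and -0.16 to -0.04 with a library left out. Of 232 alternative values for 18 named genes, 224 kept direction and side, 1 became a call and 7 turned sign. After thinning, a single random draw, Mvd was 0.06, Nsdhl -0.05 and Scarb1 0.01; Scarb1 was 0.0012 with TMM factors. With a library left out, Insig2 ran from -0.21 to 0.05, Npc2 from -0.43 to 0.08 and Scarb1 from -0.06 to 0.03. Leaving out 1 library moved 15 of the 18 differences by over 1.5 times, all but Mvd, Nsdhl and Pmvk. Beside those above, Ebp ran from 0.14 to 0.76, Hsd17b7 from 0.18 to 0.80, Hmgcs1 from 0.17 to 0.58, Sqle from 0.02 to 0.10, Scap from -0.61 to -0.19, Srebf2 from -0.91 to -0.03, Stard3 from -0.82 to -0.41, Npc1 from -0.80 to -0.09, Sc5d from -1.03 to -0.21, Abcg1 from -1.44 to -0.26, Fdps from -0.46 to -0.03 and Fdft1 from -0.16 to -0.01. The cause of these changes was not tested. With a minimum mean of 5 CPM, 28 of the 30 were tested. In KO, 14 of the 30 had under 20 estimated reads, which limits counting precision.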
